A study of Mus musculus with 15 samples.

Results

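Replication-dependent histone genes were taken as every row of the differentiation count table whose symbol starts with Hist1h, Hist2h, Hist3h or Hist4h, which gave 67 of 34245 genes. They were 6 H1, 18 H2a, 18 H2b, 12 H3 and 13 H4 genes, of which 54 lie on mouse chromosome 13 (the Hist1 cluster), 10 on chromosome 3 (Hist2), 2 on chromosome 11 (Hist3) and 1 on chromosome 6 (Hist4h4). All 67 had the same start and end in GENCODE M21 (GRCm38). Of these genes, 33 also had reads in a second count table, of mature macrophages kept with or without interleukin 4 (IL4).

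Marrow of male C57BL/6 mice, 8 to 10 weeks of age, was cultured in CSF1, the growth factor on which macrophages depend. No genetic change is given for any group, and CSF1 was in every culture. Precursors were non-adherent cells after 2 days in 0.6 ng/ml CSF1 and 15% serum. Immature macrophages were grown for 4 further days in 12 ng/ml CSF1 and 10% serum, 6 days in all. Mature macrophages passed through 0.6 and 12 ng/ml CSF1 and ended with 7 days in 120 ng/ml and 10% serum, 10 days in all. In the second table, mature macrophages were kept for 48 h more in 120 ng/ml CSF1 and 10% serum, with 20 ng/ml IL4 or without it. Each group had 3 libraries, numbered by mouse in the labels. CSF1 and days in culture differ between all 3 stages, and serum between precursors and both macrophage stages. Where these differ together they cannot be told apart. Nor can fewer dividing cells and less histone RNA per cell in these bulk samples.

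The differentiation libraries held 7897769 to 22167294 reads in genes, and the IL4 libraries 2408531 to 4214266. Levels below are CPM, read counts scaled to TMM-adjusted library totals. The 6 macrophage markers summed to 1142 to 1623 CPM in precursors, 5509 to 8987 CPM in immature and 5624 to 7524 CPM in mature macrophages. The 6 neutrophil granule markers summed to 5394 to 8126 CPM in precursors, 61.0 to 85.5 CPM in immature and 0.485 to 1.17 CPM in mature macrophages, and the B lineage, erythroid and progenitor lists were also highest in precursors. The precursor libraries thus carried RNA of several marrow lineages by these lists, and the part of that mix in the histone values was not tested.

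Cells make most of their core histones (H2A, H2B, H3 and H4) and linker histone H1 while DNA is copied in S phase, from clustered gene families that mostly lack introns. Their mRNAs normally end in a short stem-loop in place of a poly(A) tail. The stem-loop binding protein, encoded by Slbp, holds that structure through 3′ end cutting, export and translation, and the transcripts are destroyed when DNA synthesis stops. Replacement histones, such as those of the H3f3a and H3f3b genes, are made from polyadenylated mRNA throughout the cycle. In this tissue, CSF1 both sustains division of macrophage precursors and drives their maturation.

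The stem-loop was searched for in M21 transcripts as a 16-base pattern (GG, any 2 bases, CTT, any base, T, any base, AG, any 2 bases, CC), on the transcript strand and within 100 bases after the stop codon. It was found in 46 of the 67 genes. Among genes with at least 50 annotated bases after the stop codon, 46 of 50 members had it, against 6 of 20743 other protein-coding genes (0.0289%). The H4 genes differed from the other classes within the stem, above the GG and CC that the pattern fixes at its base. In 10 H4 genes the stem opened with GGCCC and in 2 with GGTCC, while all stem-loops found in H1, H2a, H2b and H3 genes opened with GGCTC. The lines below show 1 abundant member of each class with 5 flanking bases, the stem-loop in capitals.
Hist1h1c (H1): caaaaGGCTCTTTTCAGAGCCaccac
Hist2h2ac (H2a): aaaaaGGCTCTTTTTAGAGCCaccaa
Hist1h2bb (H2b): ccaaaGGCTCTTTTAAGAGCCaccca
Hist1h3c (H3): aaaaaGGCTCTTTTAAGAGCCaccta
Hist1h4d (H4): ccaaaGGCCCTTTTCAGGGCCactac

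Annotated transcripts ended within 100 bases after the stem-loop in 23 members and ran on for more than 100 bases in another 23. In the remaining 21 none was found. Most of these had under 50 annotated bases after the stop codon, often 0, so a stem-loop there could not be seen. Hist2h2be, Hist1h2br, Hist1h2bq and Hist1h2bc are among the 21 too, but up to 2192, 1803, 1608 and 742 bases are annotated after their stop codons. Where the transcripts end in these cells could not be read from gene counts.

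RefSeq promoters (GRCm38.p6, 250 bases before to 50 after the start) matched 62 of the 67 genes. Motifs were searched on both strands, and none of them contains another. CCAAT was in all matched H1 (6), H2a (18), H2b (16) and H3 (10) promoters, in 3 of 12 H4 promoters and in 37.8% of 26963 other promoters. The octamer ATTTGCAT was in 7 of 18 H2a and 6 of 16 H2b promoters, in 0 of the other classes and in 1.71% of other promoters. TATAAA was in 35 of 62 member promoters (56.5%) and in 14.1% of others. The 250 bases before the start are shown for an abundant member of 4 classes to let the reader see these differences, with the motif letters in capitals on either strand. They are chr13:23738557-23738806 (plus strand) for Hist1h1c, chr3:96220881-96221130 (minus strand) for Hist2h2ac, chr13:23745522-23745771 (minus strand) for Hist1h3c and chr13:23581318-23581567 (plus strand) for Hist1h4d.
Hist1h1c: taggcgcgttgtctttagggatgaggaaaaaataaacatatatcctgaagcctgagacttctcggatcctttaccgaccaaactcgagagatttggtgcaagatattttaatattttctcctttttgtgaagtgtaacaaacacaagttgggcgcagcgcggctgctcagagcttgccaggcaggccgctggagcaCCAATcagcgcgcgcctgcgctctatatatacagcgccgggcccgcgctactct
Hist2h2ac: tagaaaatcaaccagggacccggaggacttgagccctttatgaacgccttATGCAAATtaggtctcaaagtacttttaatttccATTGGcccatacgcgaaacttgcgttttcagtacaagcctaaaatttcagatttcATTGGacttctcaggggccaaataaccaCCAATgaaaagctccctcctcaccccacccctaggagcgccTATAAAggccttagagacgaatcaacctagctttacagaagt
Hist1h3c: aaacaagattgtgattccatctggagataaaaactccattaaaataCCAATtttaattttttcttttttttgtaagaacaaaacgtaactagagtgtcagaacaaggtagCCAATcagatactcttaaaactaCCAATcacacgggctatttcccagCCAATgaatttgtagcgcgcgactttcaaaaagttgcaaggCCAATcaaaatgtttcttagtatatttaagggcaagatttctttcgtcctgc
Hist1h4d: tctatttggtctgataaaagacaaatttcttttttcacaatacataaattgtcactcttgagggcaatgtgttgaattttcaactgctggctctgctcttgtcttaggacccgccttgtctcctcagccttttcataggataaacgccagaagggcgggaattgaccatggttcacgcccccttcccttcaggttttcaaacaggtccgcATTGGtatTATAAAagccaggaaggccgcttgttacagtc

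The Hist2h2ac sequence holds 1 octamer, 1 TATAAA and 3 CCAAT matches. It also spans the 238 bases that separate Hist2h2ac from Hist2h2be, a head-to-head pair on opposite strands. Hist1h3c has 5 CCAAT matches and Hist1h4d has 1. A match describes letters only and says nothing of what binds there.

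Histone RNA was highest in precursors and lower in both macrophage stages in every class, with wide spread between the macrophage libraries. The 67 genes summed to 30205, 29300 and 28763 CPM in the precursor libraries, 1822, 8311 and 10791 CPM in the immature libraries and 2911, 4336 and 9403 CPM in the mature libraries. The 3 precursor libraries lay close together, and none of the 6 macrophage libraries reached them. As a share of all reads in genes, the members took 3.4, 3.28 and 3.22% in precursors, 0.169, 0.812 and 1.07% in immature and 0.258, 0.408 and 0.892% in mature macrophages.

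In the macrophage stages, but not in precursors, some libraries kept a like position in every class. Library 1 was the lowest immature library and library 3 the highest mature library in each of the 5 classes. The H1 linker histone genes summed to 7794 ± 963 CPM in precursors, 1811 ± 1223 CPM in immature and 1294 ± 475 CPM in mature macrophages (SD, n = 3 each). The H2a genes summed to 3437 ± 75.2, 1126 ± 715 and 831 ± 426 CPM in the same order of stages, and the H2b genes to 8620 ± 343, 1848 ± 1311 and 1269 ± 1124 CPM. These are core histones of the H2A-H2B dimer, and in both classes the SD of each macrophage stage exceeded that of the precursors. The H3 genes summed to 3705 ± 175, 848 ± 605 and 721 ± 614 CPM, and the H4 genes to 5867 ± 128, 1341 ± 822 and 1435 ± 794 CPM. No class had a macrophage library inside the precursor range.

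**Figure D1:**
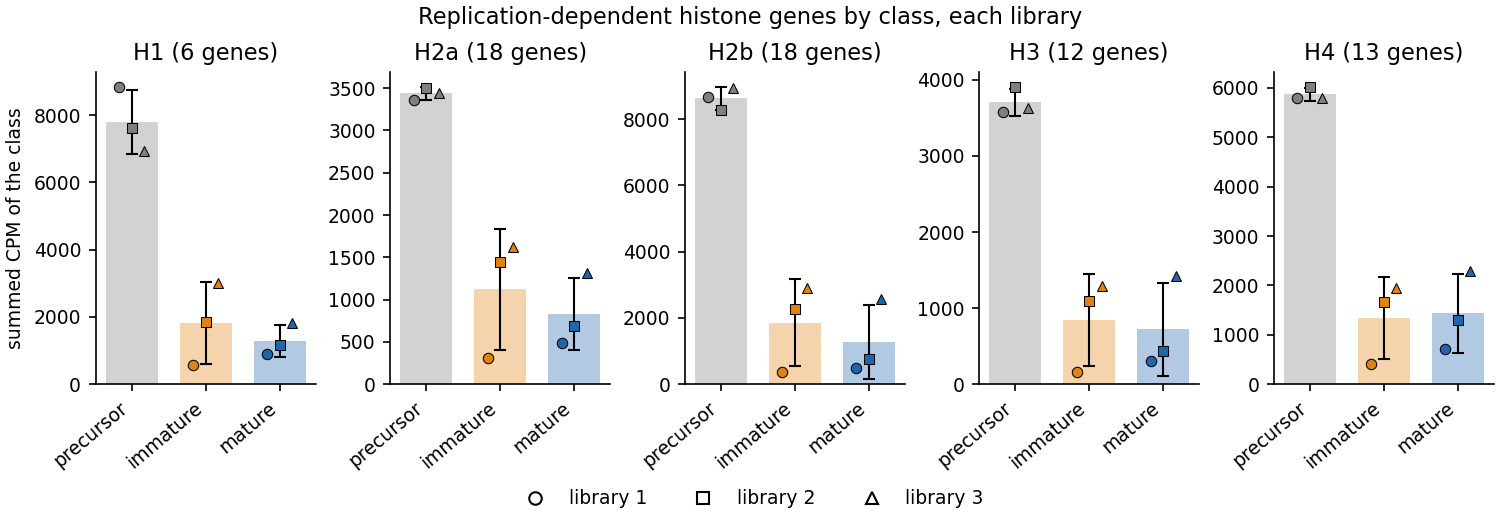
Summed CPM (linear axis) of the H1, H2a, H2b, H3 and H4 genes in precursors, immature and mature macrophages; points are the 3 libraries of a stage, bars the mean and error bars the SD. The precursor libraries stand above all 6 macrophage libraries in each class, immature library 1 is the lowest of its stage and mature library 3 the highest of its stage.

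Of the 67 members, 66 passed the filter on low counts in the differentiation table, so the counts that follow are over those 66. The member left out, Hist1h2aa, had 0 reads in each precursor library, 0, 0 and 1 reads in immature and 2, 0 and 0 reads in mature libraries. Where a member passed through its precursor reads alone, a fall was the only direction it could take.

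In immature macrophages against precursors, 50 of 66 tested members fell, 0 rose and 16 did not pass (edgeR quasi-likelihood test, adjusted p under 0.05 over 13359 genes). Over all genes tested, 26.6% were called lower and 49.2% were called in either direction. The median log2 fold change of the members was -2.13, against -0.07 for all genes tested. Leaving out 1 library at a time gave 34 to 51 members lower and medians of -2.48 to -1.67. DESeq2 and limma also called 0 members higher, and 58 members had an unadjusted p under 0.05, as did 55.9% of all genes tested. In 63 members no immature library reached a precursor library, where 35.6% of all genes tested fell without overlap. By class, 5 of 6 H1, 9 of 17 H2a, 14 of 18 H2b, 9 of 12 H3 and 13 of 13 H4 genes fell, with medians of -2.18, -1.68, -2.39, -2.12 and -2.23.

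In mature macrophages against precursors, 65 of the 66 fell and 0 rose, with a median log2 fold change of -2.47 against -0.05 for all genes tested, of which 28.5% were called lower. This comparison shares its precursor libraries with the one before. Hist2h2be was the member that did not pass, and 65 members had an unadjusted p under 0.05, as did 59.8% of all genes tested. Without single libraries the count was 45 to 64 and the median -3.23 to -2.08, lowest without mature library 3. The class medians were -2.41 for H1, -2.49 for H2a, -2.79 for H2b, -2.53 for H3 and -2.07 for H4.

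Between mature and immature macrophages, 0 members were called in either direction by edgeR, and also 0 by DESeq2 and by limma, while 14.9% of all genes tested were called (7.38% lower and 7.52% higher). Of the members, 3 had an unadjusted p under 0.05, Hist1h2ae, Hist2h3b and Hist2h2be, named here after their values were seen, where 30.7% of all genes tested did. The median was -0.43, against 0.00 for all genes tested, and it ran from -1.13 without mature library 3 to 0.03 without immature library 3. Leaving out immature library 1 gave 5 members lower, leaving out mature library 1 gave 1 and leaving out mature library 3 gave 7. At this spread the count and the median both depended on single libraries.

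**Figure D2:**
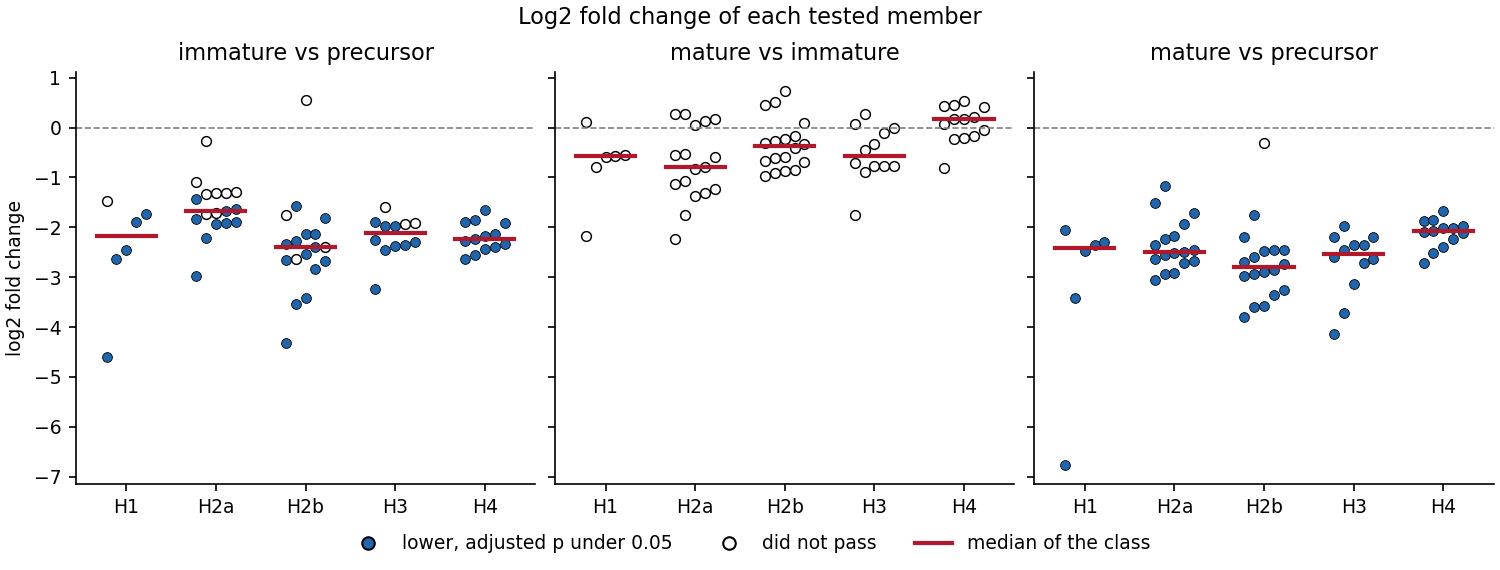
Log2 fold change (vertical axis) of each of the 66 tested members by class, with immature against precursor on the left, mature against immature in the middle and mature against precursor on the right; filled points passed the test, open points did not, and red lines are class medians. Filled points number 50, 0 and 65, and the class medians of the middle panel lie between -0.80 for H2a and 0.17 for H4.

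For the genes below, where a pair of log2 fold changes (± SE) follows the values of the 3 stages, the first is immature and the second mature macrophages, each against precursors. The linker histones H1c, H1e and H1a, which bind DNA between nucleosomes, had the most reads of their class. Hist1h1c had 2853, 2108 and 1766 CPM in precursors, 310, 584 and 907 CPM in immature and 363, 271 and 569 CPM in mature macrophages. Its log2 fold change was -1.90 ± 0.40 (SE) in immature against precursor (adjusted p = 0.00286) and -2.48 ± 0.41 in mature against precursor (adjusted p = 0.000503). Hist1h1c is of interest because its human counterpart is known to yield polyadenylated mRNA as well. Hist1h1e had 2627, 2246 and 1968 CPM in precursors, 150, 410 and 537 CPM in immature and 126, 133 and 376 CPM in mature macrophages. It showed the larger difference of the pair, at -2.64 ± 0.52 (adjusted p = 0.00188) and -3.43 ± 0.54 (adjusted p = 0.000359). Hist1h1e overlaps the annotated Hist1h2be locus on the same strand, so reads of these genes may be split between them. Hist1h1a had 1356, 1510 and 1621 CPM in precursors, 26.7, 267 and 523 CPM in immature and 180, 297 and 405 CPM in mature macrophages. Its level in immature libraries was far lower in library 1 than in libraries 2 and 3, and its fold changes were -2.46 ± 0.75 (adjusted p = 0.0192) and -2.35 ± 0.74 (adjusted p = 0.0207). The call in immature macrophages was lost without immature library 2 (adjusted p up to 0.059), and the call in mature macrophages without mature library 1 or 2 (up to 0.0721).

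Within H1, Hist1h1e took 29.2 ± 0.72% of the class CPM in precursors, 22.1 ± 4.28% in immature and 15.4 ± 4.72% in mature macrophages (SD, n = 3 each), with no macrophage library reaching the precursors.

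Hist1h1t, the testis H1, had 17, 29 and 10 reads in precursors, 0, 0 and 1 reads in immature and 0 reads in each mature library. It was the member with the largest fitted fall in both comparisons, but on few reads. Counted over the groups, it was 32.4-fold lower in immature macrophages (exact 95% counting interval 5.58 to 1301) and at least 12.1-fold lower in mature macrophages, taking a floor of 3 reads over the group. Intervals and floors cover counting error only. Of the other testis variants, Hist1h2aa was not tested and Hist1h2ba had 3.95, 6.66 and 5.94 CPM in precursors, 0.157, 1.53 and 1.02 CPM in immature and 0.566, 1.87 and 1.22 CPM in mature macrophages. Hist1h2ba fell in both, by 2.65 ± 0.64 (adjusted p = 0.00594) and 2.20 ± 0.61 (adjusted p = 0.0108) on the log2 scale; limma did not call it in mature macrophages (adjusted p = 0.158).

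Hist2h2ac and Hist3h2a, 2 of the 3 H2a genes with the most reads, had some of the smallest called changes. Hist2h2ac had 582, 606 and 558 CPM in precursors, 53.8, 189 and 318 CPM in immature and 138, 178 and 293 CPM in mature macrophages. Its log2 fold changes were -1.64 ± 0.50 (adjusted p = 0.02) and -1.52 ± 0.50 (adjusted p = 0.0248). The first call was lost without immature library 2 (adjusted p up to 0.0583) and the second in 4 of 6 fits without a library (up to 0.0859). Hist3h2a, on chromosome 11 and outside the large cluster, had 313, 447 and 431 CPM in precursors, 97.4, 154 and 187 CPM in immature and 179, 93.8 and 255 CPM in mature macrophages. It had the smallest called change of any member, -1.44 ± 0.35 (adjusted p = 0.00639) and -1.17 ± 0.35 (adjusted p = 0.0155), and kept both calls without each library in turn. Its transcript overlaps Trim17 on the same strand. Hist1h2ak had 457, 437 and 421 CPM in precursors, 19.0, 184 and 196 CPM in immature and 21.2, 35 and 114 CPM in mature macrophages. All 6 macrophage libraries lay below the precursors, but only the mature stage passed (-2.95 ± 0.78, adjusted p = 0.00883, against -1.72 ± 0.75, adjusted p = 0.0783, in the immature stage). Whether these stages differ is the third comparison, in which it did not pass (adjusted p = 0.298).

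The H2b members held some of the steepest falls and also the exception. Hist1h2be had 1275, 1206 and 1400 CPM in precursors, 86.4, 358 and 445 CPM in immature and 112, 136 and 454 CPM in mature macrophages, with log2 fold changes of -2.13 ± 0.62 in immature (adjusted p = 0.0152) and -2.46 ± 0.62 in mature macrophages against precursors (adjusted p = 0.00669). Mature library 3 was near the top immature library for this gene. Hist1h2bb had 1127, 1155 and 1397 CPM in precursors, 33, 294 and 372 CPM in immature and 38.1, 82.5 and 237 CPM in mature macrophages. Its fold changes were -2.40 ± 0.79 (adjusted p = 0.0269) and -3.36 ± 0.82 (adjusted p = 0.00548), the first lost in 3 of 6 fits without a library (adjusted p up to 0.0593). Hist2h2bb had 864, 824 and 886 CPM in precursors, 45.4, 279 and 412 CPM in immature and 88.9, 135 and 239 CPM in mature macrophages. It fell by 2.47 ± 0.63 in mature macrophages (adjusted p = 0.00686) and by 1.81 ± 0.61 in immature ones (adjusted p = 0.0312), a call lost in 4 of 6 fits without a library (up to 0.069).

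Hist1h2bp and Hist1h2br, with fewer reads, had the largest changes after Hist1h1t in immature macrophages. Hist1h2bp had 206, 148 and 89.0 CPM in precursors, 0.787, 10.5 and 11.4 CPM in immature and 1.05, 2.81 and 32.5 CPM in mature macrophages, a log2 fold change of -4.32 ± 1.14 in the immature stage (adjusted p = 0.00979). Hist1h2br had 22.7, 23.6 and 20.5 CPM in precursors, 0.315, 2.97 and 2.68 CPM in immature and 0.243, 0.935 and 3.44 CPM in mature macrophages, with changes of -3.54 ± 0.76 (adjusted p = 0.00323) and -3.81 ± 0.77 (adjusted p = 0.00176). At the other end, Hist1h2bc had 281, 276 and 290 CPM in precursors, 43.8, 105 and 135 CPM in immature and 59.9, 48.9 and 141 CPM in mature macrophages. It fell by 1.58 ± 0.44 (adjusted p = 0.0127) and 1.76 ± 0.44 (adjusted p = 0.0065).

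Hist2h2be (chr3:96221119-96223738, plus strand) was the single member with a log2 fold change above 0 in immature macrophages and the single one not called in mature macrophages. It had 6.38, 7.59 and 6.98 CPM in precursors, 13.5, 8.59 and 8.68 CPM in immature and 8.41, 2.92 and 5.43 CPM in mature macrophages. The immature libraries lay above the precursors without overlap, as in 29.4% of all genes tested, and mature libraries overlapped the precursors. The differences did not pass, at 0.56 ± 0.36 in the immature stage (adjusted p = 0.213) and -0.31 ± 0.36 in the mature stage (adjusted p = 0.484). Mature against immature gave -0.87 ± 0.36 (adjusted p = 0.132), which became -1.28 and passed without mature library 1 (adjusted p = 0.0425). Its human counterpart is known for polyadenylated transcripts, and 2.82% of its words of 31 bases were shared with another gene. Of the other members whose human counterparts are known to give poly(A) mRNA, Hist1h1c and Hist1h2bc are described above. Hist1h2ac had 269, 296 and 285 CPM in precursors, 29.1, 147 and 223 CPM in immature and 15.5, 62.3 and 111 CPM in mature macrophages, and Hist1h2bk had 466, 408 and 472, then 5.91, 94.4 and 118, then 12.1, 20.1 and 154 CPM in the same stages. Both passed in mature against precursor alone, at -2.17 ± 0.71 (adjusted p = 0.0243) and -2.85 ± 1.03 (adjusted p = 0.0366), and lost that call in 3 and 5 of 6 fits without a library (adjusted p up to 0.0659 and 0.107).

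The H3 genes Hist1h3c, Hist1h3f and Hist1h3e encode replication-coupled H3. Hist1h3c had 669, 795 and 764 CPM in precursors, 26.1, 191 and 249 CPM in immature and 78.0, 72.1 and 336 CPM in mature macrophages. Hist1h3f had 510, 559 and 541 CPM in precursors, 26.2, 172 and 211 CPM in immature and 54.8, 107 and 245 CPM in mature macrophages. The macrophage libraries of both genes lay far below the precursors. In immature macrophages the log2 fold changes were -2.26 ± 0.75 for Hist1h3c (adjusted p = 0.0285) and -1.98 ± 0.67 for Hist1h3f (adjusted p = 0.0302), both lost in 4 of 6 fits without a library (up to 0.0603 and 0.0621). In mature macrophages they were -2.20 ± 0.75 (adjusted p = 0.0288) and -1.98 ± 0.67 (adjusted p = 0.027), both lost in 5 of 6 (up to 0.0936 and 0.0838). Hist1h3e had 542, 590 and 566 CPM in precursors, 27.6, 144 and 174 CPM in immature and 36.6, 68.8 and 169 CPM in mature macrophages. It kept its calls without each library in turn, at -2.30 ± 0.64 (adjusted p = 0.0128) and -2.63 ± 0.65 (adjusted p = 0.00585). Hist2h3c1, at 80.0, 89.6 and 33.8 CPM in precursors, 4.09, 10.4 and 7.15 CPM in immature and 1.13, 1.87 and 8.26 CPM in mature macrophages, had the largest change of an H3 gene in mature macrophages, -4.14 ± 0.68 (adjusted p = 0.000491). It overlaps Gm20634 on the same strand, as Hist2h2bb does Gm42743.

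H4 was the class in which each tested gene passed in both comparisons with precursors. Hist1h4d had 1129, 1209 and 1231 CPM in precursors, 126, 501 and 508 CPM in immature and 164, 240 and 575 CPM in mature macrophages, with changes of -1.65 ± 0.53 (adjusted p = 0.0249) and -1.87 ± 0.54 (adjusted p = 0.0131). The first call was lost without each precursor library in turn (adjusted p up to 0.0539) and the second without mature library 2 (up to 0.0507). Hist1h4h had 961, 911 and 1067 CPM in precursors, 88.7, 263 and 318 CPM in immature and 131, 274 and 515 CPM in mature macrophages. Its changes were -2.14 ± 0.51 (adjusted p = 0.00594) and -1.68 ± 0.51 (adjusted p = 0.0167), the second lost without mature library 2 (up to 0.0544). Hist1h4f had 1024, 966 and 903 CPM in precursors, 30.3, 202 and 258 CPM in immature and 85.3, 170 and 294 CPM in mature macrophages, with -2.56 ± 0.65 (adjusted p = 0.00783) and -2.40 ± 0.65 (adjusted p = 0.00943). For each of these 3 genes mature library 3 exceeded every immature library.

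Levels of different genes are comparable only per length. On mean CPM per kb of exon over the 9 libraries, Hist1h4f (1118), Hist2h2bb (1101), Hist1h4h (1071) and Hist1h2bb (1036) led, followed by Hist1h1a (928). Hist1h1c, first by CPM, was at 693 CPM per kb. The length is the annotated one, for example 381 bases in Hist2h2bb and 7425 in Hist1h1d. Where transcripts end in these cells is unknown, so this order depends on the annotation.

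The make-up of the histone RNA by class changed less than its amount. H2a genes took 11.1, 12.0 and 12.0% of the member CPM in precursors, 16.8, 17.4 and 15.0% in immature and 16.9, 16.0 and 13.9% in mature macrophages, so that both macrophage stages lay above precursors without overlap. H4 genes took 19.1, 20.5 and 20.2% in precursors, 22.4, 20.0 and 18.1% in immature and 24.6, 30.02 and 24.3% in mature macrophages, and the mature libraries lay above both other stages. H2b genes took 28.6, 28.2 and 31.1% in precursors, 20.9, 27.2 and 26.9% in immature and 17.2, 17.2 and 27.2% in mature macrophages. Each macrophage library was thus below the precursors in its H2b share. H1 shares averaged 26.4, 27.1 and 25.7% in the 3 stages in order, and H3 shares 12.6, 11.3 and 11.8%, with overlapping libraries. These shares are descriptions with no test. The shares were also taken over the 25 members with under 50% of 31-base words in another gene, added after seeing the data. H2a shares there were 8.35 to 11.6% in immature and 6.99 to 11.1% in mature, against 3.98 to 5.35% in precursors. Only 4 H2a genes are among those 25, and 1 of them is Hist3h2a, the member with the smallest called change. The H2b shares overlapped there, at 16.7, 21.9 and 19.6% in immature and 13.5, 13.2 and 22.3% in mature macrophages, against 20.6, 21.4 and 24.8% in precursors.

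**Figure D3:**
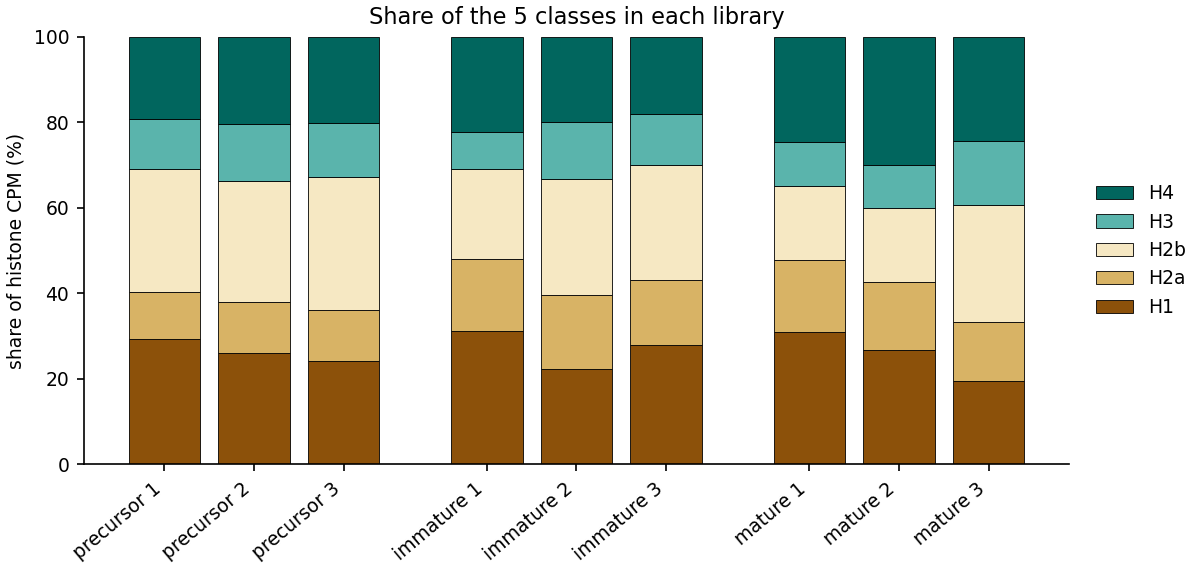
Share (%) of the member CPM that each of the 5 classes took in each of the 9 libraries. The H2a band is wider in all immature and mature libraries than in precursors, and the H4 band is widest in the 3 mature libraries.

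Many H2a and H2b genes lie head to head and share the sequence between their starts. Of 12 such pairs, with 175 to 305 bases between the genes, 11 had both members tested. In immature macrophages against precursors the H2b gene had the lower log2 fold change in 10 of 11 pairs, with a median difference (H2b minus H2a) of -1.24. Over all tested members the H2b median was also the lower (-2.39, against -1.68 for H2a), so this count cannot be read as a trait of pairs. The pair that went the other way was Hist2h2ac with Hist2h2be, at 2.20, whose shared bases are printed above. In mature macrophages against precursors the H2b gene was lower in 7 of 11 pairs, with a median difference of -0.42. These pair values come from fits that share the precursor libraries, and the differences within pairs were not tested.

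Sequence is shared widely among the members, and reads that fit several genes may have been split or dropped. A median of 60.2% of a member's 31-base words occurred in another gene, and 42 members had 50% or more. In immature macrophages against precursors the median log2 fold change was -2.14 in those 42 and -2.02 in the 24 other members tested. By annotated end, it was -2.23 in members that end close to the stem-loop and -2.14 in those that run on. It was -1.90 in those where none was found, most of which are annotated only to about the stop codon.

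Histone genes were set beside other genes of the cell cycle. The 30 S phase genes summed to 3314, 3470 and 3014 CPM in precursors, 564, 1641 and 2671 CPM in immature and 2026, 2276 and 3108 CPM in mature macrophages. Mature library 3 reached the precursor range for this sum, while its histone sum was 9403 CPM. Pcna, the sliding clamp of DNA polymerase, made up 12.3 to 12.4% of the sum in precursors, 17.1 to 24.97% in immature and 18.4 to 33.2% in mature macrophages, and without it mature library 3 (2091 CPM) was below the precursors (2643 to 3044 CPM). The ratio of histone to S phase CPM was 9.12, 8.44 and 9.54 in precursors, 3.23, 5.07 and 4.04 in immature and 1.44, 1.91 and 3.03 in mature macrophages, with no overlap between the 3 stages. Without Pcna, left out after seeing the data, it was 10.4, 9.62 and 10.9 in precursors, 4.30, 6.17 and 4.87 in immature and 2.15, 2.33 and 4.50 in mature macrophages, and the macrophage stages overlapped while both stayed below precursors. The ratio to the 20 mitosis genes was 8.73 ± 0.52 in precursors, 4.33 ± 0.32 in immature and 4.16 ± 1.27 in mature macrophages (SD, n = 3 each). Within each macrophage stage the library with the lowest histone sum also had the lowest S phase and mitosis sums. Mitochondrial genes summed to 3829 CPM in mature library 3, against 886 and 616 CPM in the other mature libraries. They summed to 932 to 1613 CPM in immature libraries and 3412 to 4483 CPM in precursors. Whether this bears on the high histone level of mature library 3 was not tested.

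**Figure D4:**
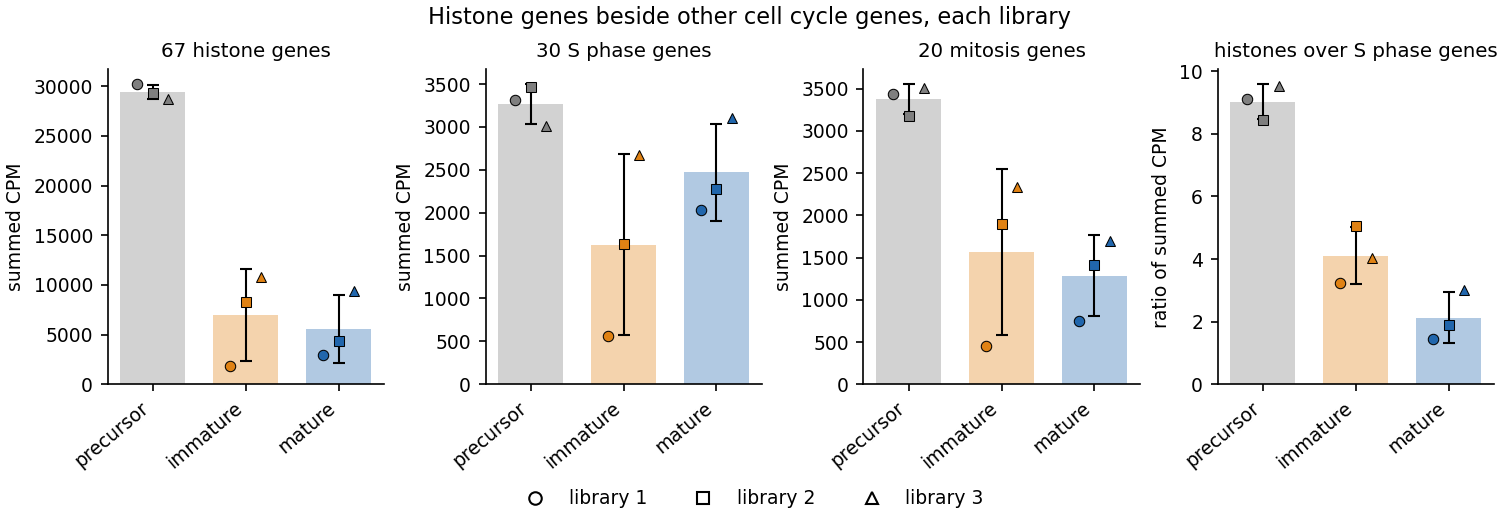
Summed CPM of the 67 histone, 30 S phase and 20 mitosis genes, and the ratio of histone to S phase CPM, in the 3 libraries (points) of each stage, with mean (bar) and SD. The ratio was 8.44 to 9.54 in precursors, 3.23 to 5.07 in immature and 1.44 to 3.03 in mature macrophages, and the macrophage stages overlap once Pcna is left out.

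Of the S phase list, 10 of 30 genes fell in immature macrophages against precursors and 0 rose (median -1.19), near the 26.6% of all genes called lower. In mature against precursor 4 of 30 fell (median -0.80), under the 28.5% of all genes called lower, and in mature against immature 0 of 30 passed (median 0.43). Genes that fell in the immature stage included E2f2, an E2F transcription factor (-1.66 ± 0.29, adjusted p = 0.000895), Cdc6, which loads the replicative helicase (-1.87 ± 0.47, adjusted p = 0.00721), Mcm4, a subunit of that helicase (-1.39 ± 0.36, adjusted p = 0.00883), and Prim1, of the primase (-1.35 ± 0.38, adjusted p = 0.0134). Of the mitosis list, 1 of 20 fell in the immature stage and 5 of 20 in the mature stage against precursors, with medians of -0.73 and -1.11, both counts below the shares of all genes. In 21 of the 30 S phase and 9 of the 20 mitosis genes no immature library reached a precursor library, where 35.6% of all genes tested fell without overlap. For mature libraries this held in 20 of the 30 and 18 of the 20, against 34.4% of all genes tested. Mki67, a marker of cycling cells, had 1178, 1013 and 1152 CPM in precursors, 105, 330 and 359 CPM in immature and 122, 208 and 402 CPM in mature macrophages, and fell by 2.07 ± 0.49 (adjusted p = 0.00516) and 2.19 ± 0.49 (adjusted p = 0.00327).

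Genes that make histone mRNA were read from the same fits. In the list of histone gene transcription and 3′ processing, 5 of 16 fell and 1 rose in immature macrophages against precursors, 5 fell and 2 rose in mature against precursor, and 1 fell in mature against immature. The list medians were -0.20, -0.18 and 0.10 in these comparisons, and the counts lower were near the 26.6, 28.5 and 7.38% of all genes called lower. Called higher were 22.5, 25.8 and 7.52% of all genes. Slbp had 66.5, 80.3 and 72.3 CPM in precursors, 26, 32.9 and 51.3 CPM in immature and 52.7, 61.0 and 49.4 CPM in mature macrophages. The immature libraries lay below the precursors, a fall of 0.99 ± 0.24 (adjusted p = 0.00575). Npat, the coactivator of histone gene transcription in S phase, had 37.0, 32.4 and 35.3 CPM in precursors, 21.7, 22.1 and 18.5 CPM in immature and 14.9, 18.0 and 27.7 CPM in mature macrophages. It fell by 0.75 ± 0.23 (adjusted p = 0.0213) and 0.79 ± 0.23 (adjusted p = 0.015), the first lost in 4 of 6 fits without a library (up to 0.0815). Lsm10, a protein of the U7 particle that cuts histone pre-mRNA, went the other way, with 6.32, 5.49 and 6.82 CPM in precursors, 17.4, 15.6 and 11.4 CPM in immature and 20.1, 7.95 and 9.03 CPM in mature macrophages. It rose by 1.26 ± 0.35 in the immature stage (adjusted p = 0.013) and by 1.00 ± 0.35 in the mature stage (adjusted p = 0.0327), where 4 of 6 fits without a library did not pass (adjusted p up to 0.162, and a change of 0.47 without mature library 1). Zfp473, which acts in 3′ processing with that particle, fell by 1.71 ± 0.46 in mature macrophages (adjusted p = 0.0095).

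Among 19 histone chaperone genes, 4 fell in the immature stage and 5 in the mature stage against precursors, and 3 fell in mature against immature. In the same order, 26.6, 28.5 and 7.38% of all genes were called lower. Of the 19, 0 rose in these 3 comparisons, where 22.5, 25.8 and 7.52% of all genes were called higher. Asf1a, which hands H3-H4 to assembly factors, had 16.3, 14.9 and 15.6 CPM in precursors, 5.59, 7.06 and 7.66 CPM in immature and 6.79, 6.66 and 8.49 CPM in mature macrophages. It fell by 1.21 ± 0.23 (adjusted p = 0.00142) and 1.09 ± 0.22 (adjusted p = 0.00202). Nasp, a carrier of H1 and H3-H4, fell by 0.93 ± 0.19 in mature against precursor (adjusted p = 0.00191). Of 9 tested replacement histone genes, 3 fell in the immature and 4 in the mature stage against precursors, beside 26.6 and 28.5% of all genes called lower. H2afx, whose product marks DNA breaks, had 382, 432 and 341 CPM in precursors, 16.3, 108 and 139 CPM in immature and 28, 81.3 and 108 CPM in mature macrophages, a pattern like that of the members, and fell by 2.14 ± 0.65 (adjusted p = 0.0194) and 2.41 ± 0.66 (adjusted p = 0.01). H2afy, the macroH2A gene, had 312, 289 and 331 CPM in precursors, 110, 121 and 132 CPM in immature and 92.1, 87.7 and 79.6 CPM in mature macrophages, with little spread in any stage. Its falls were 1.36 ± 0.16 (adjusted p = 6.21e-05) and 1.84 ± 0.16 (adjusted p = 6.39e-06).

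The IL4 table held few histone reads. The 68 histone symbols there took 10447 reads over 6 libraries, 33 of the 67 members had any, and 34 were at 0. Hist1h2ak alone held 30.2% of these reads and the 5 members with most reads 65.7%. Members with reads were 5 of 6 H1, 11 of 18 H2a, 5 of 18 H2b, 5 of 12 H3 and 7 of 13 H4 genes. Of members without a stem-loop in the annotated transcript, 5 of 21 had reads, against 14 of 23 that end close to it and 14 of 23 that run on. Of 48 members with at least 10 CPM in each mature library of the first table, 22 were at 0 in all 6 IL4-table libraries (45.8%), against 433 of 7253 other genes (5.97%). The replacement histone genes H3f3b and H2afz, at 282 to 412 and 171 to 239 CPM in mature macrophages, were also at 0 or 1 read in each library of that table. Levels were not set across the tables, and the counting program of either is not given in the sources used here.

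With IL4, 4 of the 15 histone genes with enough reads to test passed as lower. The members summed to 156, 439 and 376 CPM in IL4 libraries, against 412, 751 and 937 CPM without IL4. Each IL4 library was below the library of its own mouse number, and the groups overlapped. Of these 15 members, 0 rose and 11 did not pass, while 10.3% of all 8936 genes tested were called lower. The median log2 fold change was -1.14, against 0.01 for all genes. DESeq2 called 7 lower and limma 2, both called 0 higher, and 13 had an unadjusted p under 0.05, as did 31.4% of all genes tested. Same-numbered libraries tended to vary together in this table, less so for number 2 (correlation of 0.176). Unstimulated library 3 and IL4 library 2 reached 0.245, so the pairing by number is not established. With the mouse number as a block 12 of the 15 were lower and 1 higher, where the same fit called 16.1% of all genes lower and 16.2% higher. Single libraries moved the count from 2, without unstimulated library 2 or 3, to 13, without unstimulated library 1. Each such fit was filtered anew on low counts, and the 13 include members outside these 15.

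Hist1h2bm, an H2b gene, had 6.15, 15.5 and 9.2 CPM with IL4, against 25.8, 32.9 and 52.4 CPM without it. The groups did not overlap, and the log2 fold change was -1.86 ± 0.36 (adjusted p = 0.00343). Hist2h4 had 14.2, 25.8 and 23.3 CPM with IL4, against 37.2, 50.2 and 74.6 CPM without it, -1.37 ± 0.30 (adjusted p = 0.00744). Both genes kept the call without each library in turn. Hist1h1d had 5.61, 17.9 and 16.1 CPM with IL4, against 19.0, 46.5 and 45.3 CPM without it, -1.49 ± 0.43 (adjusted p = 0.0295). Hist1h2bb had 10.7, 41.7 and 36.8 CPM with IL4, against 53.9, 69.9 and 91.3 CPM without it, -1.28 ± 0.40 (adjusted p = 0.0425). These 2 calls were lost without unstimulated library 2 (adjusted p = 0.119 for Hist1h1d and 0.112 for Hist1h2bb) or 3 (0.0935 and 0.136), that of Hist1h2bb also without IL4 library 3 (0.0561).

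Hist1h2ak, the member with most reads, had 29.7, 143 and 114 CPM with IL4, against 110, 226 and 307 CPM without it. The groups overlapped through unstimulated library 1, and the change of -1.17 ± 0.49 did not pass (adjusted p = 0.126), while the blocked fit gave -1.30 (adjusted p = 6.55e-05). Hist1h1b, at 6.41, 29.4 and 31.9 CPM with IL4 against 28.1, 64.2 and 68.4 CPM without it, likewise moved from an adjusted p of 0.0982 to 6.99e-05 with the block. Hist1h1c ran against the rest, with 29.7, 25.5 and 18.4 CPM with IL4, against 15.0, 15.2 and 17.2 CPM without it. The IL4 libraries lay above the others without overlap, as in 18.4% of all genes tested, and the change of 0.63 ± 0.23 passed with the block (0.62, adjusted p = 0.0278) but not without it (adjusted p = 0.0742).

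**Figure D5:**
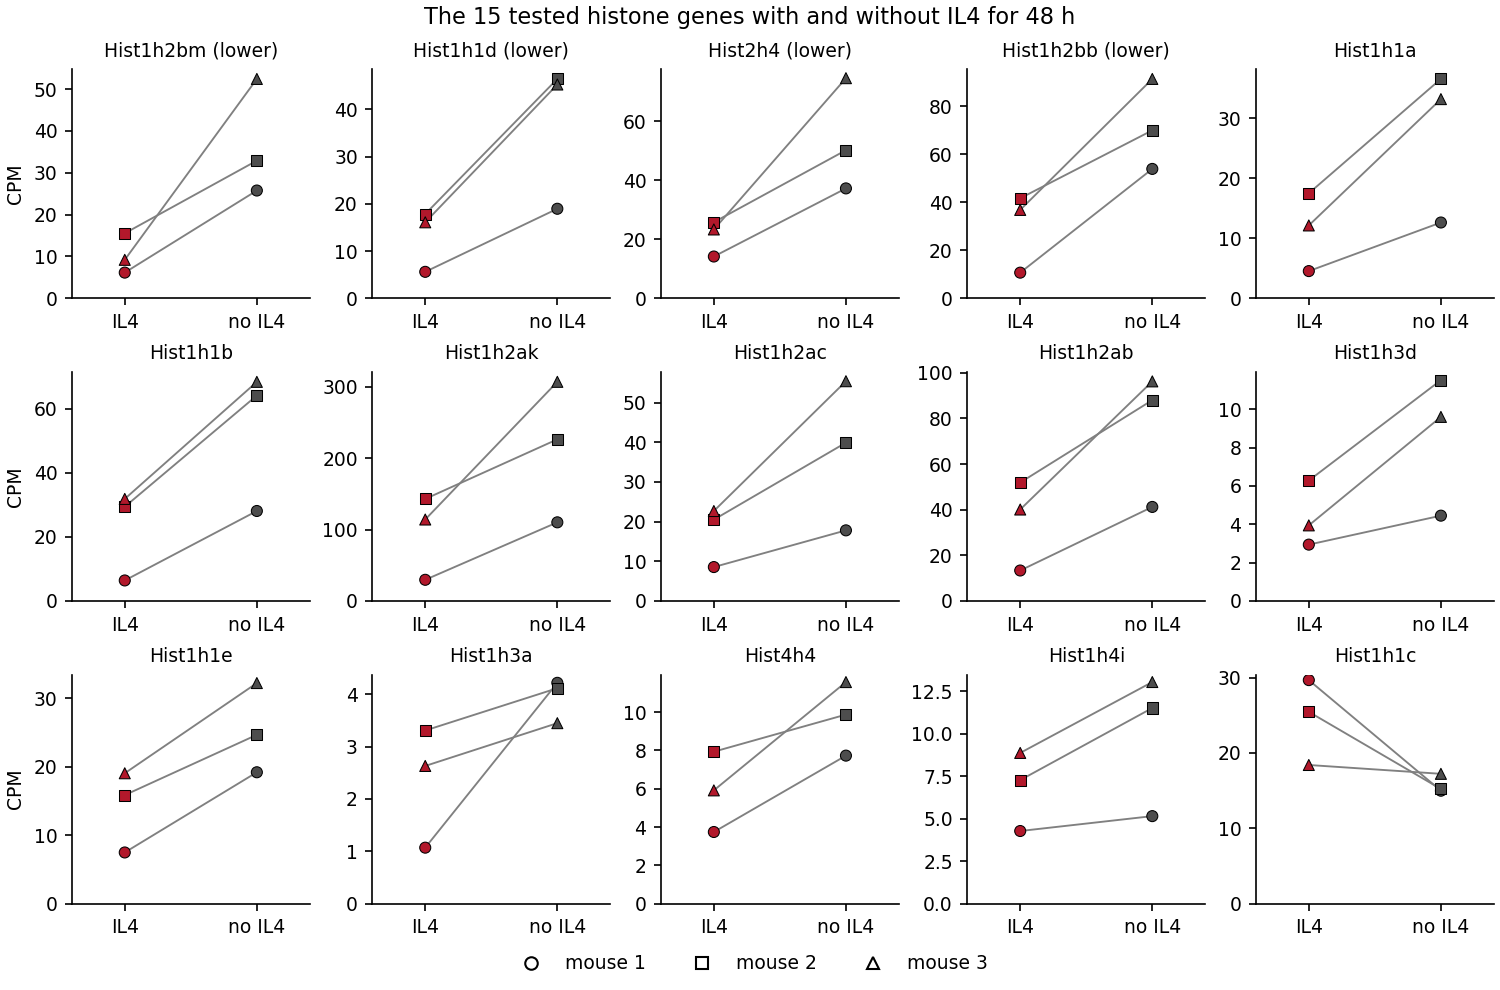
CPM (linear axes that start at 0) of the 15 tested histone genes in mature macrophages with IL4 (left) and without it (right); lines join libraries of 1 mouse number, and "lower" marks the 4 genes that passed. Lines climb toward the cultures without IL4 for nearly every gene, and Hist1h1c is the gene whose IL4 libraries all lie above the others.

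Cell cycle genes fell with IL4 as well. Beside 10.3% of all genes called lower, 18 of 27 tested S phase genes fell with IL4 and 0 rose (median -1.04), and of 19 mitosis genes 10 fell (median -1.05). With the mouse number as a block 24 of the 27 S phase and all 19 mitosis genes were lower, against 16.1% of all genes in that fit. Tk1, thymidine kinase, had 5.61, 16.2 and 13.1 CPM with IL4, against 32.1, 44.4 and 44.8 CPM without it (-1.81 ± 0.33, adjusted p = 0.00245). The chaperone gene Asf1b, active in dividing cells, had 9.89, 22.5 and 14.5 CPM with IL4, against 35.1, 57.6 and 53.4 CPM without it (-1.64 ± 0.30, adjusted p = 0.00281). The ratio of histone to S phase CPM was 0.381, 0.586 and 0.532 with IL4 and 0.425, 0.519 and 0.731 without it, overlapping ranges. Pcna and 34 of the members had 0 reads in all 6 libraries, so these ratios cannot be set beside those of the 3 stages. Of the processing list 1 of 13 tested genes fell with IL4, Lsm10, by 0.58 ± 0.18 (adjusted p = 0.0413), lost in 5 of 6 fits without a library. With the block 3 of the 13 were lower, among them Slbp, which had 40.9, 47.6 and 51.3 CPM with IL4, against 50.6, 75.3 and 75.8 CPM without it (-0.51, adjusted p = 0.0216). Of 6 tested replacement histone genes, 0 passed in either direction, and 1 had an unadjusted p under 0.05. H2afx passed with the block (-0.63, adjusted p = 0.0378).

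The authors' deposited table for immature against precursor lists 59 of the members, and 50 of them were called here. For mature against precursor it lists 65, the same genes as here, and for mature against immature 0. For IL4 the authors' deposited table lists 5 members, the 4 called here and Hist2h2ac.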

How the data were processed

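RNA of the 15 libraries was taken by column with DNase and 1 µg of total RNA per library was sequenced on Ion Torrent, per the labels' protocols. HISAT2 2.0.5, edgeR and the builds GRCm38.p6 and GRCm39.p6 are named in the submitters' processing notes. For the counting program, strand setting and any poly(A) selection, none is given in the sources used here. Per gene, read counts were deposited by the authors in a table of 9 and another of 6 libraries, beside log2 RPM and lists of genes with adjusted p-values.

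Here edgeR 4.0.16 (R 4.3.3) was run on the counts of each table with TMM, filterByExpr (minimum count 10) and the quasi-likelihood test. P-values were adjusted over all genes tested by Benjamini-Hochberg, and genes under 0.05 were called. Standard errors are the fold change over the root of F. DESeq2 1.42.0, limma 3.58.1 on the deposited log2 RPM, other scaling, filters and single libraries left out were alternatives. The steps were tested on simulated data. Members and gene lists were chosen with earlier results of these data known. Named members are the 3 with highest mean CPM per class, the 3 largest and 3 smallest called changes per comparison at 1 CPM or more in the higher group, any against the common direction, testis and polyadenylated variants, up to 10 called with IL4, and from the S phase and mitosis lists up to 4 genes by p and Mki67. The labels do not say whether replicates were cultured apart beyond their mouse numbers, so p-values measure the spread between these libraries. Deviations of same-numbered libraries correlated at 0.589, 0.176 and 0.412 between IL4 and unstimulated cultures. Those of differently numbered libraries ran from -0.485 to 0.245, the highest above the 0.176 of number 2. The numbers were taken as pairs in the block fit there, though the deposited names within a pair carry different M numbers. The pairing is thus not established. Symbols join the tables, where 57 members had the same gene identifier and 10 another. Stem-loops and shared 31-base words come from GENCODE M21 transcripts, promoters from RefSeq (GRCm38.p6). Depth limits genes with few reads, above all in the IL4 table.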

Additional observations from a re-analysis of the deposited data

How the results depend on the processing

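No result among the counts of called members, the class sums, the class shares and the named genes changed sign under any alternative run while called. The counts of lower members against precursors stayed within 1.5 times under each alternative. Without 1 library the count of lower members was 34 to 51 in immature against precursor and 45 to 64 in mature against precursor. It was 0 to 7 in mature against immature and 2 to 13 with IL4, where higher members numbered 0 to 1. The 13 include members not tested in the main fit, since each fit was filtered anew. In mature against immature, 1 member was lower with no filter on low counts and 1 with the replicate block. In the differentiation table the correlations of same-numbered libraries ran from -0.14 to 0.22, and those of differently numbered ones from -0.17 to 0.18. The replicate block there is only a fit with the number as a term. With IL4, DESeq2 gave 7 lower, limma 2 and the replicate block 12 lower and 1 higher. With IL4 the block also gave 24 of 27 S phase, 19 of 19 mitosis and 3 of 13 processing genes lower, and the 3 chaperone genes called lower did not change in number. The cause of these differences was not tested. Unscaled library totals raised the precursor sums to 32992 CPM for all members, 3854 for H2a, 9665 for H2b, 4154 for H3 and 6578 for H4. The 25 members with under 50% of words shared summed to 15271 CPM in precursors, 174 CPM with IL4 and 353 CPM without it, since fewer genes are summed. They hold only 4 H2a genes and 1 H3 gene. Over those 25, an alternative added after seeing the data, the class shares in precursors, immature and mature macrophages were 50.9, 48.4 and 47.1% for H1, 4.88, 9.63 and 8.93% for H2a, 22.2, 19.4 and 16.3% for H2b and 1.35, 1.41 and 1.10% for H3, while H4 stayed within 1 SD. With Pcna left out of the S phase genes, also added after seeing the data, the mean ratio of histone to S phase CPM was 10.3 in precursors, 5.11 in immature and 2.99 in mature macrophages. Of the named genes and comparisons under other settings, 1731 were the same and 42 gained a call. Another 47 either lost a call or, where not called, changed sign. Without 1 library 1319 were the same, 20 gained a call and 274 either lost it or, where not called, changed sign. Groups of 3 libraries limit what any of these fits can show.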
